A study of Homo sapiens with 9 samples.

Results

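The comparison described here sets cells given the Del52 form of calreticulin (CALR) against cells given the Ins5 form, gene by gene. It uses the 3 arrays labelled Del52 and the 3 labelled Ins5, 6 of the 9 arrays of the study, and covers all 18239 genes that the arrays measured with at least 1 probe set assigned to a single gene symbol. Where a gene had several such probe sets, the one with the highest mean over the 9 arrays stood for it. The study placed wild-type CALR, Del52 or Ins5 into K562, a long-cultured line from a human myeloid leukaemia that can take an erythroid or a megakaryocytic course, and by its title asked about the unfolded protein response and oxidative stress. Each form came by retroviral transduction, and transduced cells were taken by magnetic selection for the surface marker NGFR, so both groups share vector, selection and host line. No label states that the host's own CALR was removed, so a mutant form is read here beside the host's. Replicates 1, 2 and 3 of each group carry a number in the labels, and nothing says that they came from separate cultures, so p-values measure only the spread between these samples, which may be technical.

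Calreticulin is a chaperone of the endoplasmic reticulum (ER) that binds calcium and the sugar chains of young glycoproteins. Del52, a deletion, and Ins5, an insertion, shift the reading frame near the end of the gene. Both replace the acidic tail and its ER retrieval signal with a shared, positively charged tail, and Ins5 keeps more of the acidic stretch than Del52 does. Both forms occur in patients with essential thrombocythaemia or primary myelofibrosis, diseases in which JAK2 and STAT5 signalling is known to be active. The 3 classical ER stress sensors are PERK (EIF2AK3), IRE1 (ERN1) and ATF6. PERK and 3 other kinases slow translation and raise the transcription factor ATF4, which switches on genes of amino acid supply.

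Known targets of ATF4 had the lowest list medians in the replicate 1 pair and those of the heat shock factor HSF1 the highest, and other lists described here answer to ER stress and to JAK-STAT. Stretches of promoters that carry the recognition letters of these factors are shown, from RefSeq's GRCh38.p14 promoter windows of 250 bases before to 50 after each gene's start. Only the 250 bases before the start were searched, and the shares below refer to those. Each is read 5′ to 3′ on the gene's own strand, and the capitals mark the motif. The first group carries the ATF4-C/EBP composite element, searched as TGATGNAA on both strands.
ATF3 (chr1:212565186-212565253, plus strand): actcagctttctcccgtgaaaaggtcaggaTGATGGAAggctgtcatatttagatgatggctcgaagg
CHAC1 (chr15:40953232-40953299, plus strand): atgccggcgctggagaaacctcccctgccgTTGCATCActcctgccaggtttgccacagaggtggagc
ASNS (chr7:97872439-97872506, minus strand): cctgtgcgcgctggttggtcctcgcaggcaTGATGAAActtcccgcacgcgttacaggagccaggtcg
AARS1 (chr16:70289656-70289723, minus strand): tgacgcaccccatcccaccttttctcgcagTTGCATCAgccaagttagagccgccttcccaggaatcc

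In CHAC1 and AARS1 the match reads as the reverse complement, TTNCATCA. The element was present in 3.89% of the 27305 genes with a window, in 24% of the 25 ATF4 regulators with one and in 33.3% of the 12 serine, asparagine and one-carbon enzymes with one. In amino acid transporters the share was 8.33% of 12, and in cytosolic tRNA synthetases 16.7% of 18. A match describes letters in the window, not a bound site.

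The ER stress element, read by ATF6 together with NF-Y, was searched as CCAAT and CCACG with 9 bases of any kind between them, on both strands. It was present in 0.0916% of all genes with a window and in 20% of the 35 ER chaperones and disulfide isomerases with one. CALR itself carries it, as do the chaperones HSPA5 (BiP) and HSP90B1 (GRP94), and HSP90B1 holds 2 copies.
CALR (chr19:12938359-12938432, plus strand): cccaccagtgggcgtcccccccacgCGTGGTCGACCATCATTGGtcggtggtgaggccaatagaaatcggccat
HSPA5 (chr9:125241361-125241439, minus strand): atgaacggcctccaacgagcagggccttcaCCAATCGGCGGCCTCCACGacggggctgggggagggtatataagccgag
HSP90B1 (chr12:103930186-103930369, plus strand): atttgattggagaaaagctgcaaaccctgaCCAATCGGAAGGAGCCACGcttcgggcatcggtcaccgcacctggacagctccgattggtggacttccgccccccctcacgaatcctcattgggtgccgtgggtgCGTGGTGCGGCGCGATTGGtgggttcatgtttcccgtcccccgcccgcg

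The heat shock element was searched as GAA, TTC and GAA with 2 bases of any kind between each, on both strands, and was present in 0.557% of all genes with a window and in 23.1% of the 26 cytosolic heat shock genes with one. HSPA8 carries it at 2 places, and in CHORDC1 3 matches overlap into 1 run.
HSPA8 (chr11:123062149-123062386, minus strand): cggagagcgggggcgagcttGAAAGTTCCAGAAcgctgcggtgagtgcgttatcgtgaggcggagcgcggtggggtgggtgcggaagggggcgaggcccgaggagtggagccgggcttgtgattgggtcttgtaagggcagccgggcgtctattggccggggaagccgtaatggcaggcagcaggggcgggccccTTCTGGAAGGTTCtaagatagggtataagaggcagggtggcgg
CHORDC1 (chr11:90223057-90223139, minus strand): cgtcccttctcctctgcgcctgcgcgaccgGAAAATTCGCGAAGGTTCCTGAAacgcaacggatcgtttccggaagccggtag

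For the JAK-STAT pathway the palindrome TTCNNNGAA was searched, which reads the same on both strands. It was present in 8.09% of all genes with a window and in 11.5% of the 26 pathway genes with one. CISH, the STAT5-induced feedback inhibitor, holds 4 copies.
CISH (chr3:50611848-50612024, minus strand): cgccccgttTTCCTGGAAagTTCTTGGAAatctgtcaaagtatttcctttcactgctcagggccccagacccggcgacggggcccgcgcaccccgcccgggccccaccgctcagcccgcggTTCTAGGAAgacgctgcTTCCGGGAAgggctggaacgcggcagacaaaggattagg

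Values are the authors' RMA values, log2 signal per probe set, and a difference always means Del52 minus Ins5. The transduced gene came first. The brighter of 2 CALR probe sets read 7.61, 7.25 and 7.40 in Del52 replicates 1 to 3 and 7.48, 7.47 and 7.26 in Ins5, and the groups overlapped. The log2 difference was 0.01 ± 0.14 (SE, n = 3 arrays a group, adjusted p = 1 by limma with Benjamini-Hochberg adjustment). The dimmer CALR probe set read 4.45, 4.31 and 4.36 against 4.17, 4.20 and 4.47, which also overlapped. Both could read the host's transcript, and which part of CALR each covers is not given in the sources used here, so these values do not check the labels. NGFR, the selection marker, read 3.48, 3.43 and 3.34 in Del52 and 3.39, 3.45 and 3.44 in Ins5, a log2 difference of -0.01 ± 0.05 that was 0.01 with each array centred on its median. Those NGFR values lie within the span of the 23 antigenomic control probe sets, which match no human sequence (1.53 to 6.52).

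No gene passed the test between the mutant forms. In the limma fit over 18239 genes, 0 had an adjusted p under 0.05, and the smallest adjusted p was 0.841. Before adjustment, 1052 genes (5.77% of those tested) had a p under 0.05, where 912 would be expected with no difference anywhere. Of these, 405 (2.22%) were higher in Del52 and 647 (3.55%) lower. The median log2 difference over all genes was -0.01 and 38 genes differed by 0.5 or more. As deposited, 45.4% of genes were higher in Del52 and 54.6% lower, and with each array centred on its own median the split was 56.7% and 43.3%. An exact permutation test of 3 against 3 arrays cannot give a two-sided p under 0.1, so each gene is given by its arrays and by the fit. That 0.1 is also the share of genes expected to have groups that do not overlap, either way, if the arrays were interchangeable. Every Del52 array lay above every Ins5 array for 3.81% of genes and below for 6.28%.

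The arrays behind those means differed by replicate number. Between the replicate 1 arrays, 474 genes (2.6%) were at least 0.5 lower in Del52 and 208 (1.14%) at least 0.5 higher. Between the replicate 2 arrays these counts were 19 (0.104%) and 13 (0.0713%), and between the replicate 3 arrays 72 (0.395%) and 68 (0.373%). A difference of 1 or more, a change of signal by a factor of at least 2, was reached by 77 lower and 9 higher genes in the replicate 1 pair. No gene reached it in the replicate 2 pair, and 3 did in the replicate 3 pair. The SD of the differences over genes was 0.227, 0.124 and 0.154.

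**Figure D1:**
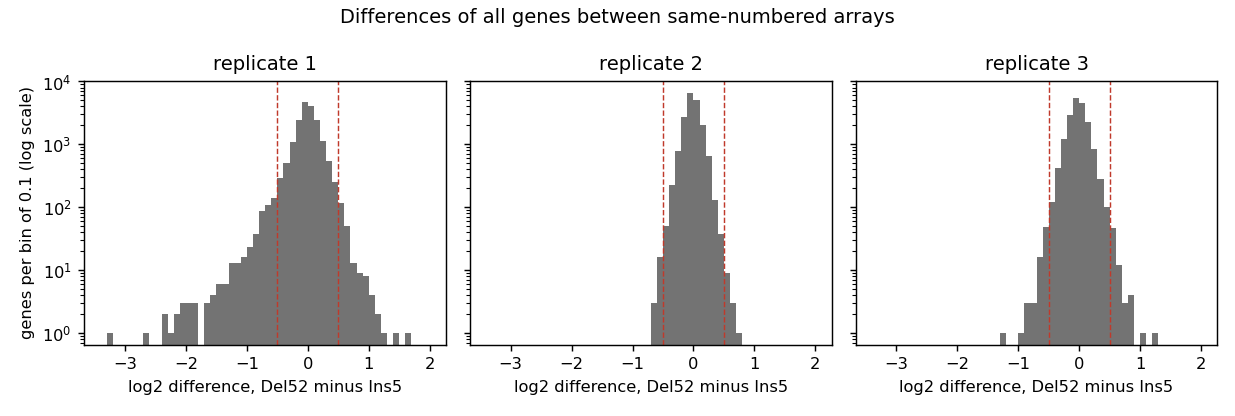
Each panel counts all 18239 genes by their log2 difference, Del52 minus Ins5, between the 2 arrays of the same replicate number; the vertical axis is logarithmic and dashed lines mark 0.5 either way. The replicate 1 panel has a long tail to the left, with 474 genes at or below the lower line, against 19 in replicate 2 and 72 in replicate 3.

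The genes that stood apart in the replicate 1 pair were followed in the other pairs, which had no part in choosing them. Of the 474 lower genes, 295 (62.2%) were also lower in the replicate 2 pair, where 53.7% of all genes were, and 255 (53.8%) in the replicate 3 pair, where 52.6% of all genes were. Their median difference was -0.03 in replicate 2 and -0.02 in replicate 3, and 2 and 3 of them reached 0.5 there. Of the 208 higher genes, 77 (37%) were higher in replicate 2, where 43.3% of all genes were, and 130 (62.5%) in replicate 3, where 44.4% were. Over all genes the differences of 1 pair and another had a Pearson r of 0.03 (replicates 1 and 2), 0.05 (1 and 3) and 0.01 (2 and 3), a description across genes that share arrays and normalization.

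The replicate number also showed in the values themselves. Any 2 arrays of the same number held exactly the same deposited value for 1.95 to 3.83% of genes, over 9 such pairs that include the wild-type arrays. Over the 27 pairs of arrays with different numbers this share was 0 to 0.0274%. What produced the equal values was not tested. Each difference below is therefore given within its replicate number too.

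**Figure D2:**
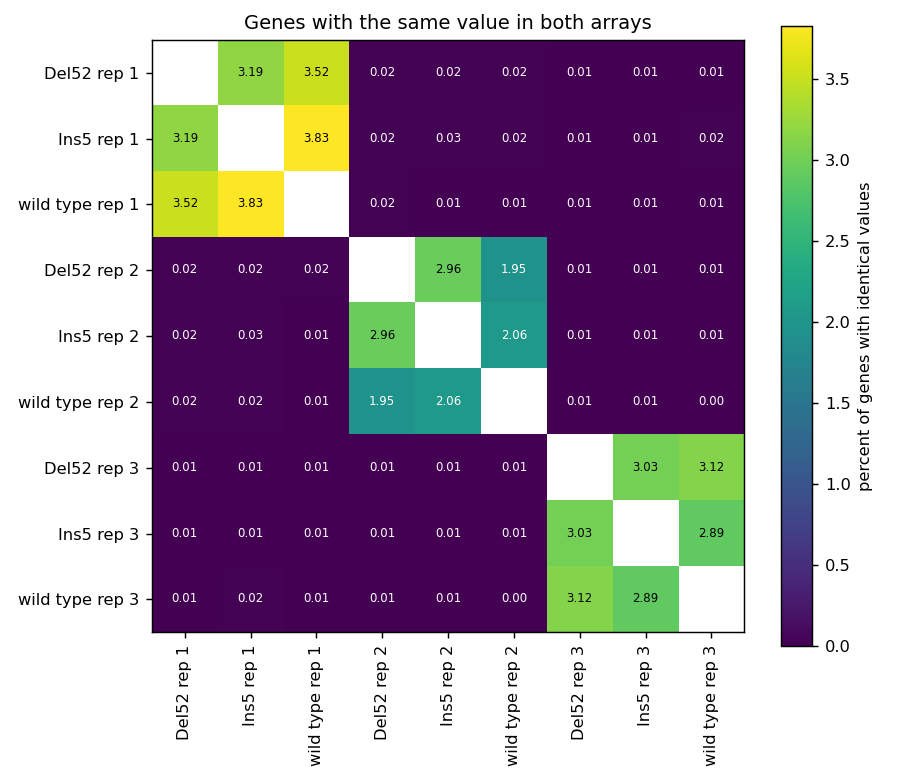
Each cell gives the percent of the 18239 genes whose deposited value is the same in 2 arrays, with arrays ordered by replicate number. Cells within a number lie between 1.95 and 3.83%, and cells across numbers reach at most 0.0274%.

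ATF4 regulators and direct targets were lower in Del52 in the replicate 1 pair. The list holds the 4 kinases that feed ATF4, ATF4 and its partner factors, and well-known targets. Of its 29 measured members, 23 were lower and 6 higher on average, with a median log2 difference of -0.30 against -0.01 over all genes. The median was -0.77 in the replicate 1 pair, where 17 of 29 were at least 0.5 lower (2.6% of all genes were). It was 0.00 in the replicate 2 pair and -0.11 in the replicate 3 pair. With both replicate 1 arrays left out, the median was -0.06. None of the 29 passed the adjusted test, and 5 were at an unadjusted p under 0.05 (5.77% of all genes were), 3 of them lower in Del52 and 2 higher.

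The kinases differed among themselves. EIF2AK1 (HRI), which senses haem and mitochondrial stress, had a log2 difference of 0.04 ± 0.09 and EIF2AK2 (PKR), the sensor of double-stranded RNA, 0.03 ± 0.10. EIF2AK3 (PERK) read 5.80, 5.74 and 5.60 in Del52 and 5.77, 5.92 and 5.91 in Ins5, a log2 difference of -0.15 ± 0.07 (limma adjusted p = 0.899). EIF2AK4 (GCN2), which senses uncharged tRNA, read 5.93, 5.91 and 6.11 against 5.83, 5.75 and 5.89, with every Del52 array above every Ins5 array, as for 3.81% of all genes. Its log2 difference was 0.16 ± 0.10, and it was -0.04 with the mean of all its probe sets. EIF2S1, the kinases' shared substrate, was 0.19 ± 0.07 higher.

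ATF4 mRNA read 10.23, 10.48 and 10.50 in Del52 and 10.69, 10.48 and 10.62 in Ins5. The replicate 2 values were the same to 2 decimals, and the gap lay in replicate 1 (-0.46). The log2 difference was -0.19 ± 0.09 (limma adjusted p = 0.91). CEBPB, a dimer partner of ATF4, read 7.85, 8.37 and 8.24 against 8.76, 8.37 and 8.41, with a gap of -0.91 in replicate 1 and 0.00 in replicate 2. CEBPG, another partner, differed by -1.09, -0.07 and -0.05 in the 3 pairs. DDIT3 (CHOP), the pro-apoptotic factor of this arm, differed by -0.45, 0.23 and -0.60.

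ATF3, a stress factor whose promoter is shown above, read 5.72, 8.13 and 6.45 in Del52 and 8.09, 8.02 and 6.48 in Ins5. The replicate 1 pair differed by -2.36, and the other pairs by 0.11 and -0.03. Its wild-type arrays read 8.08, 5.74 and 8.96, a wider span than the gap between the mutants, and its log2 difference was -0.76 ± 0.94 (limma adjusted p = 1). TRIB3, a pseudokinase that restrains the response, read 7.97, 8.91 and 8.86 against 9.56, 8.94 and 8.97. Each TRIB3 value of Del52 lay below each of Ins5, as for 6.28% of all genes, while the pairs differed by -1.58, -0.03 and -0.11.

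CHAC1, which degrades glutathione, read 5.79, 7.16 and 6.47 in Del52 and 7.46, 7.18 and 6.40 in Ins5. DDIT4 (REDD1), an inhibitor of mTORC1, read 8.46, 10.06 and 9.68 against 10.58, 9.96 and 9.62. Both show a low first Del52 array and near-equal values in the other replicates. SESN2, another mTORC1 inhibitor, differed by -1.32, -0.07 and -0.14 in the 3 pairs. STC2, a secreted glycoprotein, differed by -1.90, -0.06 and -0.14. GDF15, a stress-induced hormone, read 8.77, 9.43 and 9.12 against 10.06, 9.26 and 9.63, with its replicate 1 gap at -1.29.

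ATF5, a factor translated under the same control as ATF4, differed from that pattern. It read 6.51, 6.27 and 6.93 in Del52 and 6.90, 6.72 and 7.27 in Ins5, lower by -0.39, -0.45 and -0.35 in the 3 pairs. The groups overlapped because the replicates of each form differed among themselves by more than that, and the log2 difference was -0.40 ± 0.31 (limma adjusted p = 1). Over all genes, 14.8% were lower in every pair and 9.72% higher, and among the ATF4 regulators 8 and 2 of 29 were. FGF21, a hormone under ATF4 control, was 0.18 ± 0.05 higher, from readings of 2.56 to 2.85 that lie within the antigenomic span.

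**Figure D3:**
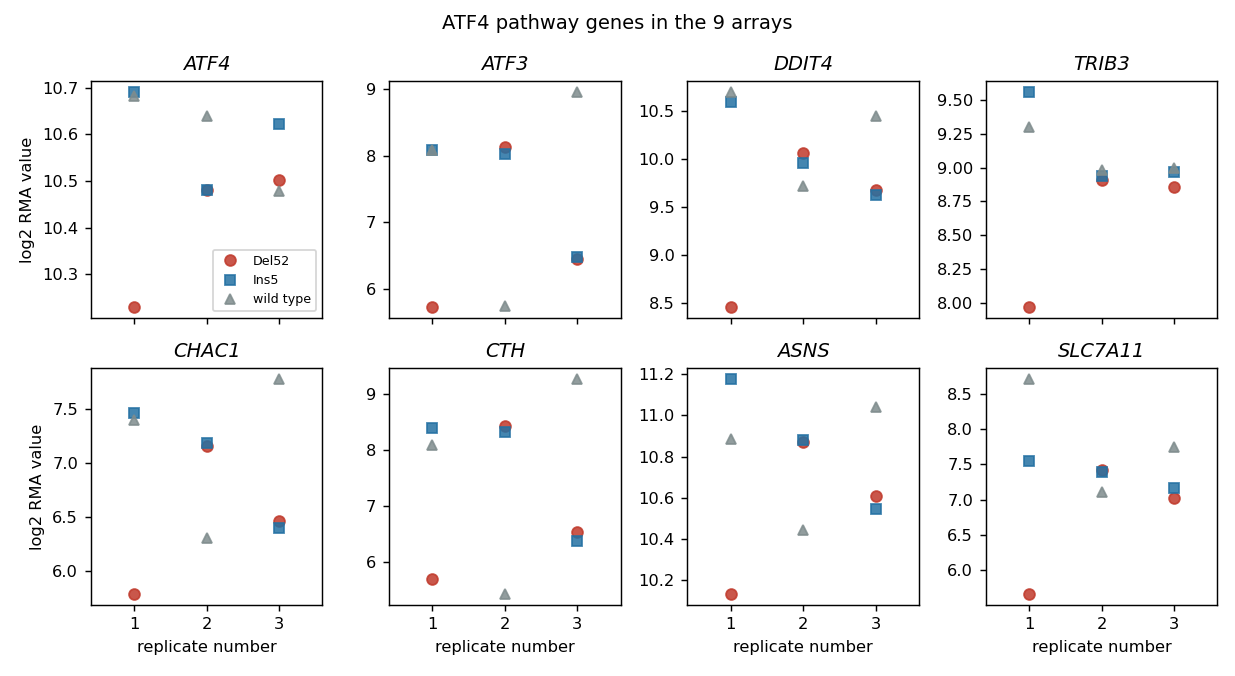
Each panel shows 1 gene of the ATF4 pathway in all 9 arrays, as log2 RMA value (vertical axis, not starting at 0 and scaled per gene) against replicate number; red circles are Del52, blue squares Ins5 and grey triangles wild type. Del52 and Ins5 lie close together in replicates 2 and 3 (10.87 and 10.88 for ASNS in replicate 2), with more room on the narrow ATF4 axis (10.50 and 10.62 in replicate 3), and Del52 lies lowest in replicate 1.

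Enzymes that make serine, asparagine and one-carbon units followed. Of 16 measured, 14 were lower in Del52, with a median log2 difference of -0.22. In the replicate 1 pair 9 were at least 0.5 lower (2.6% of all genes were). The median of these enzymes was -0.64 in that pair, 0.00 in both other pairs, and -0.01 without the replicate 1 arrays. CTH, which makes cysteine from cystathionine, read 5.70, 8.42 and 6.53 in Del52 and 8.40, 8.32 and 6.38 in Ins5. The 2 forms tracked each other in replicates 2 and 3, between which CTH itself differed widely, and lay -2.70 apart in replicate 1. Its wild-type arrays read 8.09, 5.43 and 9.27, and the log2 difference was -0.82 ± 1.10 (limma adjusted p = 1).

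ASNS, asparagine synthetase, read 10.13, 10.87 and 10.61 in Del52 and 11.18, 10.88 and 10.55 in Ins5. PHGDH, the first enzyme of serine synthesis, read 7.74, 8.72 and 8.37 against 9.24, 8.80 and 8.34. PSAT1, the next enzyme, differed by -1.37, 0.02 and 0.06 in the 3 pairs. In each of the 3 genes the gap of replicate 1 exceeded 1 log2 unit and that of the other replicates stayed under 0.1. MTHFD1, the cytosolic one-carbon enzyme, went the other way: 8.05, 7.96 and 8.06 in Del52 lay above 7.90, 7.88 and 7.90 in Ins5, a log2 difference of 0.13 ± 0.05 (limma adjusted p = 0.841).

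Amino acid transporters showed a median log2 difference of -0.25, with 13 of 16 lower. With the mean of all probe sets of each gene the median was -0.10. In the replicate 1 pair the median was -0.59 and 10 of 16 were at least 0.5 lower (2.6% of all genes were). The medians were 0.01 and -0.11 in the other pairs. SLC7A11, the cystine importer that supplies glutathione synthesis, read 5.67, 7.42 and 7.02 in Del52 and 7.56, 7.40 and 7.17 in Ins5. SLC38A2, an importer of neutral amino acids, read 8.98, 10.04 and 9.56 against 10.05, 10.01 and 9.54. The first Del52 array is the lowest of the 6 for both. SLC7A1, the importer of arginine and lysine, differed by -0.99, -0.08 and -0.08 (log2 difference -0.38 ± 0.23).

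Cytosolic tRNA synthetases divided among themselves. Of 21 members 14 were lower, with a median of -0.06 overall and of -0.23, -0.01 and 0.02 in the 3 pairs. AARS1, for alanine, read 7.56, 7.96 and 7.96 in Del52, each below 8.37, 7.97 and 8.10 in Ins5, a log2 difference of -0.32 ± 0.14 (limma adjusted p = 0.86). WARS1, for tryptophan, differed by -1.25 in the replicate 1 pair, by 0.07 in replicate 2 and by 0.00 in replicate 3. RARS1, for arginine, and KARS1, for lysine, differed by 0.02 and 0.07 in the replicate 1 pair. Mitochondrial synthetases, which serve the organelle, had a median of -0.01 with 8 of 16 lower.

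Over the 4 ATF4 lists (29, 16, 16 and 21 genes measured), 43 genes were at least 0.5 lower in the replicate 1 pair. Of all genes, 2.6% were. Of the 43, 32 have more than 1 probe set. Every probe set was lower in Del52 for 28 of the 32, and at least 0.5 lower for 18. These counts include the probe set that chose each gene, and all the probe sets were read in the same pair of arrays. INHBE, a hepatokine subunit outside the lists, is named because it had the largest difference of all genes, chosen after its values were seen. INHBE read 5.48, 7.80 and 7.28 in Del52 and 8.75, 7.82 and 7.11 in Ins5, which is -3.27, -0.02 and 0.17 by pair and -1.04 ± 0.69 over the fit (limma adjusted p = 0.983).

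Cytosolic heat shock genes were higher in Del52 in the replicate 1 pair. These chaperones and their helpers fold proteins in the cytosol, and HSF1 drives many of them. Of 31 measured, 26 were higher on average, with a median log2 difference of 0.12. The median was 0.24 in the replicate 1 pair, where 9 were at least 0.5 higher (1.14% of all genes were), and 0.02 in each of the other pairs. Without the replicate 1 arrays it was 0.02. The readings of a heat shock gene spanned, at the median, 0.57 over the wild-type arrays, 0.29 over the Del52 arrays and 0.32 over those of Ins5. Such a span has no sign, unlike a pair difference. The median wild-type span was 0.20 over all genes. It was 0.41 over the ATF4 regulators, whose replicate 1 median was -0.77. In 12 of the 31 Del52 was higher in every pair, against 9.72% of all genes.

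HSPA1B, a stress-inducible HSP70, read 7.38, 6.38 and 6.89 in Del52 and 6.38, 6.47 and 6.83 in Ins5. HSPA1A, its near-identical neighbour, read 10.88, 10.21 and 10.58 against 10.18, 10.21 and 10.51. The 2 genes can share signal, and both were highest in the first Del52 array. HSPA8, the constitutive HSP70 shown above, differed by 0.37, -0.03 and 0.05. HSP90AA1, the inducible HSP90, differed by 0.62, 0.11 and -0.01, and DNAJB1, an HSP40 partner, by 0.68, 0.13 and -0.20. HSF1 mRNA itself read 5.34, 5.41 and 5.55 in Del52 and 5.55, 5.45 and 5.57 in Ins5, a log2 difference of -0.09 ± 0.08.

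In 6 heat shock genes no Del52 array overlapped an Ins5 array, and all 6 were higher (3.81% of all genes were). CHORDC1, an HSP90 partner with 3 overlapping heat shock matches, read 7.91, 7.73 and 7.72 against 7.37, 7.63 and 7.69. STIP1 (HOP), which links HSP70 to HSP90, read 8.76, 8.60 and 8.61 against 8.49, 8.47 and 8.58. DNAJB4, an HSP40, read 6.08, 6.12 and 6.18 against 5.91, 6.02 and 5.83. The gaps between the nearest arrays of the 2 groups were small for all of them. BAG2, PTGES3 and CRYAB complete the set, with log2 differences of 0.12 ± 0.05, 0.08 ± 0.04 and 0.14 ± 0.04. HSPA4L, an HSP110 relative, was higher by 0.57, 0.33 and 0.77 in the 3 pairs, yet its groups overlapped (log2 difference 0.56 ± 0.43, limma adjusted p = 1).

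Other protein-handling and growth genes leaned the same way by less. Of the 14 subunits of TRiC and prefoldin, which fold actin and tubulin, 12 were higher, with a median of 0.06 and pair medians of 0.17, 0.02 and 0.03. Of 36 proteasome genes 29 were higher, with a median of 0.05 and pair medians of 0.12, -0.01 and 0.05. Of 42 MYC and ribosome biogenesis genes 35 were higher, with a median of 0.08, which was 0.23 in the replicate 1 pair, -0.02 in replicate 2 and 0.02 in replicate 3. Without Del52 replicate 1 the MYC list's median was 0.015, and without both replicate 1 arrays -0.003, while the proteasome median was then 0.020. A MYC list gene spanned, at the median, 0.48 over the wild-type arrays, 0.30 over the Del52 arrays and 0.25 over those of Ins5. LYAR, a nucleolar protein, read 8.63, 7.88 and 8.52 in Del52 and 7.93, 7.97 and 8.50 in Ins5. MYC read 9.58, 9.38 and 9.54 against 9.48, 9.35 and 9.76, a log2 difference of -0.03 ± 0.16. In 2 of the 42 MYC list members every Del52 array lay below every Ins5 array, against 6.28% of all genes. They are MXD1 and MXI1, which counter MYC (-0.14 ± 0.06 and -0.17 ± 0.08). For MXD1 the mean of all its probe sets gave 0.0046.

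Cholesterol synthesis genes, which answer to the ER-bound factor SREBP2, had a median of 0.09 with 18 of 23 higher. The pair medians were 0.15, -0.03 and 0.08, and without the replicate 1 arrays the median was 0.03. SREBF2, which encodes the factor, read 6.80, 6.75 and 6.85 in Del52, above 6.66, 6.75 and 6.68 in Ins5, a log2 difference of 0.11 ± 0.05 (limma adjusted p = 0.86). With the mean of all SREBF2 probe sets the difference was -0.02. HMGCS1, an early enzyme, read 7.75, 7.02 and 8.08 against 7.25, 7.11 and 7.76, and DHCR7, the last reductase, 6.95, 6.24 and 7.27 against 6.47, 6.27 and 7.02. Both vary more among the replicates of 1 form than between forms.

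**Figure D4:**
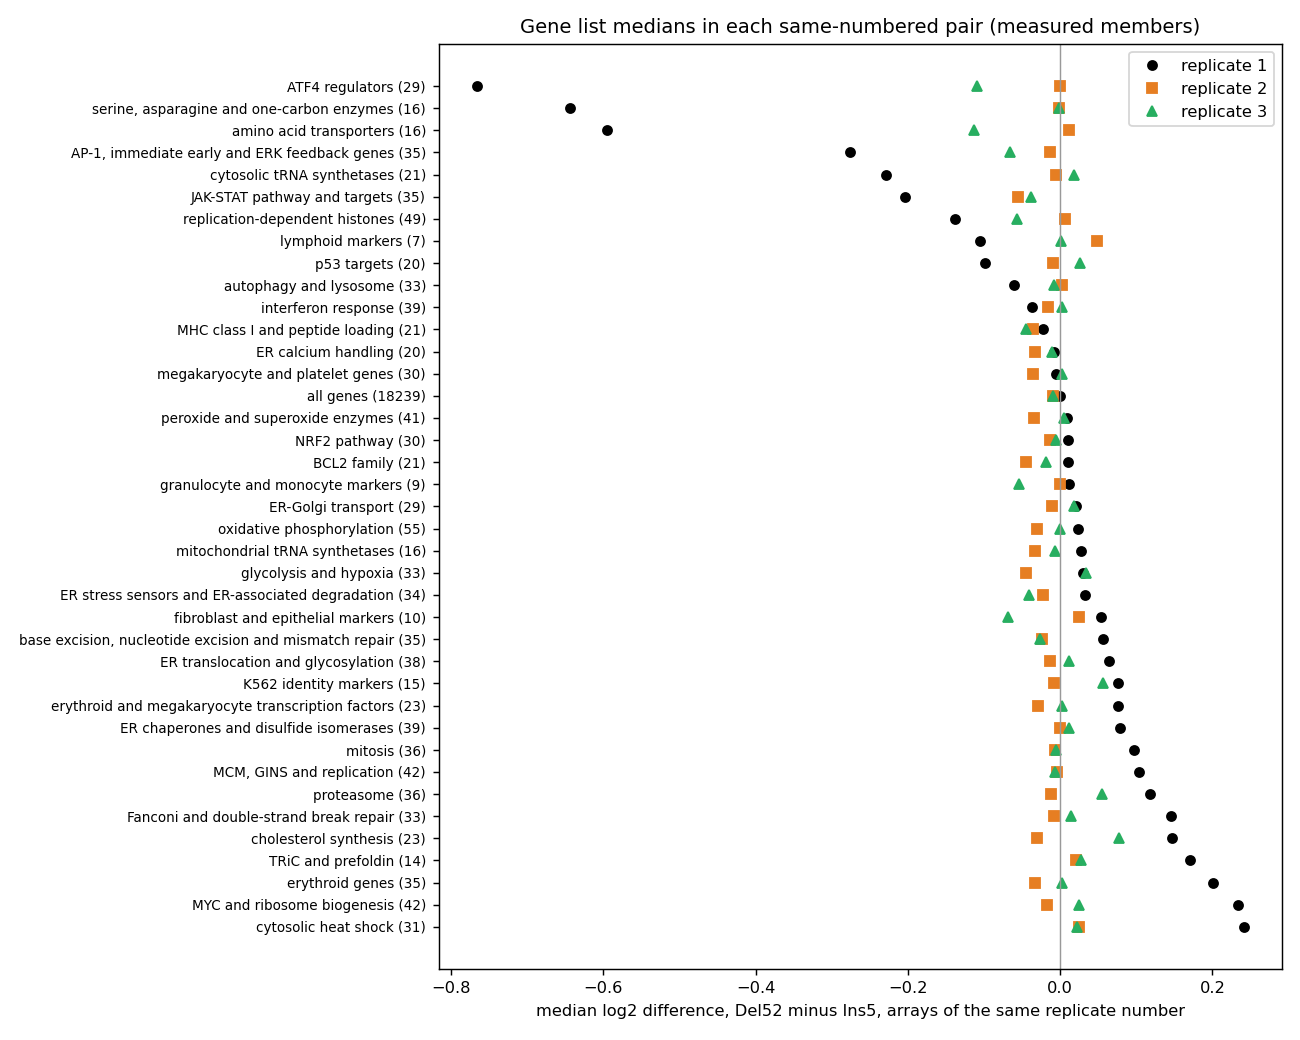
Each line is a gene list with the number of measured members, and the points give the median log2 difference, Del52 minus Ins5, within replicate 1 (black circles), replicate 2 (orange squares) and replicate 3 (green triangles). ATF4 regulators lie at -0.77 in replicate 1 and cytosolic heat shock genes at 0.24, while the replicate 2 and 3 medians of every list lie between -0.11 and 0.08.

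The unfolded protein response, named in the study's title, includes the PERK and ATF4 arm given above. Its ER chaperone list and its list of sensors and degradation genes had medians near the all-gene median. Of 39 ER chaperones and disulfide isomerases, 25 were higher, with a median of 0.02 and pair medians of 0.08, 0.00 and 0.01. HSPA5 (BiP), the ER HSP70, read 10.33, 10.35 and 10.14 in Del52 and 10.25, 10.07 and 10.11 in Ins5, a log2 difference of 0.13 ± 0.10 (limma adjusted p = 1). HSP90B1 read 11.23, 11.06 and 11.01 against 11.01, 11.08 and 11.08. Neither separated the groups. CANX, the membrane partner of calreticulin, differed by 0.01 ± 0.06, and DNAJB9, a co-chaperone of BiP under IRE1 control, by -0.08, 0.00 and -0.37 in the 3 pairs.

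PDIA3 (ERp57), the isomerase that works with calreticulin, read 9.26, 9.13 and 9.11 in Del52, above 9.10, 9.09 and 8.90 in Ins5, a log2 difference of 0.14 ± 0.10. UGGT2, which returns unfolded glycoproteins to calreticulin, read 4.56, 4.94 and 4.86, below 5.37, 5.26 and 5.0, with pair differences of -0.81, -0.33 and -0.15. Its log2 difference was -0.43 ± 0.14 (limma adjusted p = 0.841). Among genes above the median level with groups that did not overlap and an unadjusted limma p under 0.05, that difference was the second most negative. UGGT1, its better-known relative, read 5.83, 5.02 and 5.66 against 5.33, 5.32 and 6.10, with no order between the groups. EMC1, a subunit of the ER membrane insertase, read 6.92, 6.86 and 6.93 against 6.66, 6.75 and 6.66, a log2 difference of 0.21 ± 0.04 (unadjusted p = 0.001, limma adjusted p = 0.841).

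The sensors and the degradation machinery gave a median of -0.02 with 13 of 34 higher. XBP1, the IRE1 target, read 8.31, 8.86 and 8.32 in Del52 and 8.79, 8.78 and 8.20 in Ins5. ATF6 differed by 0.07 ± 0.15, and ERN1 by 0.06 ± 0.04 at readings of 2.83 to 2.94, within the antigenomic span. ATF6B, a relative of ATF6, read 5.62, 5.71 and 5.66, below 5.90, 5.79 and 5.90 (log2 difference -0.20 ± 0.05, unadjusted p = 0.00268, limma adjusted p = 0.841). MBTPS2, the protease that frees ATF6 and SREBP from the membrane, also lay below in every array (-0.21 ± 0.08). The third such gene was CREB3, another membrane-bound factor (-0.14 ± 0.06), which makes 3 of 34, against 6.28% of all genes.

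Among the degradation genes, 3 carried the replicate 1 gap. EDEM1, which extracts misfolded glycoproteins, differed by -0.91, -0.06 and -0.02, SEL1L, the scaffold of the HRD1 ligase, by -0.90, -0.08 and -0.01, and HERPUD1, its adaptor, by -0.77, -0.02 and -0.14. They are the members of this list at least 0.5 lower in that pair, 3 of 34, against 2.6% of all genes. Genes of ER calcium handling had a median of -0.01 with 7 of 20 higher, those of ER translocation and glycosylation 0.03 with 26 of 38 higher, and those of ER-Golgi transport 0.00 with 15 of 29 higher.

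Genes of the JAK-STAT pathway, which carries cytokine signals to the nucleus, had a median of -0.11 with 27 of 35 lower. The pair medians were -0.20, -0.06 and -0.04, each below the all-gene median, and without the replicate 1 arrays the median was -0.04. JAK2, the kinase, read 5.04, 4.92 and 5.37 in Del52 and 4.80, 5.04 and 5.01 in Ins5. STAT5A differed by -0.11 ± 0.28 and STAT5B by -0.11 ± 0.17. None of the 3 separated the groups.

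Among STAT5 targets, CISH read 7.10, 7.29 and 7.27 in Del52, each below 7.65, 7.35 and 7.53 in Ins5. The pairs differed by -0.56, -0.06 and -0.26, and the log2 difference was -0.29 ± 0.09 (unadjusted p = 0.012, limma adjusted p = 0.841). MCL1, a survival factor, read 8.89, 8.94 and 8.94, each below 9.13, 9.02 and 9.08 (-0.15 ± 0.04). JAK1 (-0.12 ± 0.06) and ID1 (-0.06 ± 0.04) were the other members below Ins5 in every array, which makes 4 of 35, against 6.28% of all genes. SOCS1, an inhibitor of JAK kinases, read 4.68, 5.11 and 5.43 against 5.93, 5.18 and 5.34, and SOCS2 differed by -0.82, 0.11 and 0.01. PIM1, a kinase induced by STAT5, differed by -0.94, 0.11 and 0.02. For SOCS1, SOCS2 and PIM1 the gap lay in replicate 1. SOCS3 differed by -0.21, -0.10 and -0.46 and BCL2L1 (BCL-XL) by -0.39, -0.04 and -0.01.

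AP-1, immediate early and ERK feedback genes had a median of -0.15 with 26 of 35 lower. In the replicate 1 pair 11 were at least 0.5 lower (2.6% of all genes were). The pair medians were -0.28, -0.01 and -0.07, and without the replicate 1 arrays the median was -0.02. ATF3 stands in this list too. DUSP10, a phosphatase of p38 and JNK, read 5.12, 5.44 and 5.38, each below 5.81, 5.56 and 5.72 (log2 difference -0.38 ± 0.10, unadjusted p = 0.00485, limma adjusted p = 0.841). The ERK-responsive ETV5 differed by -1.26, -0.16 and -0.01 and KLF6 by -1.14, -0.05 and 0.05. EGR1 had its gap elsewhere: it read 7.57, 7.04 and 7.65 in Del52 and 8.06, 7.05 and 8.88 in Ins5, so that replicate 3 differed by -1.23 and replicate 1 by -0.49.

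Both oxidative stress lists had medians near the all-gene median. Every Del52 array lay below every Ins5 array for 1 of 30 NRF2 pathway genes, against 6.28% of all genes. The same held for 3 of 41 peroxide and superoxide enzymes. The NRF2 pathway had a median of -0.01 with 13 of 30 higher, and peroxide and superoxide enzymes -0.01 with 20 of 41 higher, or 0.02 with each array centred on its median. NFE2L2, which encodes NRF2, read 8.65, 8.89 and 8.87 in Del52, each below 8.97, 8.92 and 8.91 in Ins5 (log2 difference -0.13 ± 0.08, limma adjusted p = 0.957). Its targets NQO1, a quinone reductase, and TXNRD1, thioredoxin reductase, differed by -0.10 ± 0.29 and -0.04 ± 0.09. HMOX1, haem oxygenase, read 2.74 to 2.92 in the 6 arrays, within the antigenomic span. KEAP1, which holds NRF2 back, differed by -0.03 ± 0.11. TXNIP, the inhibitor of thioredoxin, read 9.76, 10.28 and 10.04, each below 10.59, 10.29 and 10.46, with pair differences of -0.83, -0.02 and -0.43 (log2 difference -0.42 ± 0.14, limma adjusted p = 0.841).

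Lineage genes checked the label and were compared. K562's known fetal and embryonic globins were bright in all 6 arrays, with HBG1 at 11.81 to 11.98 and HBE1 at 11.07 to 11.30. Erythroid genes had a median of 0.05 with 22 of 35 higher, and pair medians of 0.20, -0.03 and 0.00. Without both replicate 1 arrays the erythroid median was -0.030, and with 1 array left out it ran from 0.0002 to 0.10. GATA1, the erythroid master factor, read 8.47, 8.11 and 8.40 against 8.13, 8.12 and 8.40, and KLF1, its partner at globin genes, 8.39, 7.93 and 8.17 against 7.92, 8.07 and 8.08. TRIM58, an erythroid ubiquitin ligase, read 6.19, 5.86 and 6.03, each above 5.50, 5.85 and 5.68 (log2 difference 0.35 ± 0.10, limma adjusted p = 0.841). Megakaryocyte and platelet genes, the lineage that these mutations expand in patients, had a median of -0.01 with 11 of 30 higher, and ITGA2B (CD41) differed by -0.70, -0.31 and 0.44 in the 3 pairs. The median level of that list was 3.06, within the antigenomic span, against 4.313 over all genes. A small median difference of genes so dim does not show that the forms are alike.

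The 10 genes with the smallest unadjusted p had narrow groups and small differences. PRDM1 (BLIMP1), a repressor that guides B and T cell maturation, read 4.06, 4.09 and 4.09 in Del52 and 4.52, 4.34 and 4.47 in Ins5, a log2 difference of -0.36 ± 0.06 (unadjusted p = 0.000379, limma adjusted p = 0.841). CBX7, a Polycomb subunit that reads histone H3 methylation, read 4.62, 4.57 and 4.64 against 4.80, 4.86 and 4.84. FGR, a SRC-family kinase of myeloid cells, read 4.11, 4.07 and 3.98 against 4.27, 4.29 and 4.42. In each of these 3 genes all 3 pairs differed the same way, and the values lie inside the antigenomic span.

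GNG7, a G-protein subunit, was the higher gene with the smallest p, at 2.88, 2.80 and 2.91 against 2.55, 2.66 and 2.55. SETBP1, which protects the oncoprotein SET and is mutated in some myeloid neoplasms, read 2.92, 2.90 and 2.98 against 3.15, 3.19 and 3.13. Both are dim. The others are DNAI3 (-0.22 ± 0.04), MAPK7, the ERK5 kinase (-0.20 ± 0.04), SCRN2 (-0.20 ± 0.04), STPG3 (-0.22 ± 0.05) and EMC1, given above, the only one of the 10 whose 6 readings all lie above the antigenomic span.

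Genes above the median level were the 9119 with a mean over 9 arrays above the median gene, 4.313. That level lies within the antigenomic span, so a gene above it can still read within the span. UGGT2, ZNF548, DUSP10 and TRIM58 do. Of these 9119, 347 had groups that did not overlap and an unadjusted p under 0.05 in limma, and none passed the adjusted test. Among the 347, 135 were higher and 212 lower. MGA, a MAX partner that opposes MYC, led the higher ones: 6.93, 6.57 and 6.74 in Del52 against 6.0, 6.54 and 6.17 in Ins5, a log2 difference of 0.51 ± 0.15 (limma adjusted p = 0.841). Its pairs differed by 0.93, 0.03 and 0.57, so the second pair was level. SBNO1, a helicase-like gene, read 8.21, 7.86 and 8.15 against 7.55, 7.72 and 7.74. EXOSC6, a subunit of the RNA exosome, read 7.10, 6.92 and 7.37 against 6.76, 6.92 and 6.57. USP31, a deubiquitinase, was the most even, higher by 0.35, 0.35 and 0.34 (log2 difference 0.35 ± 0.13).

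The rest of the 10 higher genes are TRIM58 and SZRD1, TAF1B, RIF1, CTSZ and GPAM, with log2 differences from 0.31 to 0.35. SZRD1 read 7.09, 7.03 and 7.02, each above 6.79, 6.83 and 6.51. RIF1, a factor of replication timing and break repair, differed by 0.26, 0.07 and 0.66, and TAF1B, of RNA polymerase I, by 0.53, 0.06 and 0.42. CTSZ, a lysosomal protease, differed by 0.43, 0.04 and 0.46, and GPAM, which starts triglyceride synthesis, by 0.21, 0.04 and 0.68. For these 4 the replicate 2 pair was again the smallest.

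S100P, a calcium-binding protein, led the lower genes among these 347. It read 8.20, 8.61 and 8.73 in Del52 against 9.34, 8.77 and 8.81 in Ins5, a log2 difference of -0.46 ± 0.18 (limma adjusted p = 0.849). UGGT2 and TXNIP came next, with the values given above. ZNF548, a zinc finger gene, read 4.49, 4.75 and 4.74 against 5.18, 4.99 and 4.99, with pair differences of -0.69, -0.24 and -0.25. CD80, a costimulatory ligand, differed by -0.78, -0.04 and -0.32, MYCL, a MYC paralog, by -0.86, -0.17 and -0.07, and NFIL3, a basic leucine zipper repressor, by -0.77, -0.04 and -0.30. RBM43 (-0.40 ± 0.14), DUSP10 and LENG8 (-0.37 ± 0.11) complete the set.

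**Figure D5:**
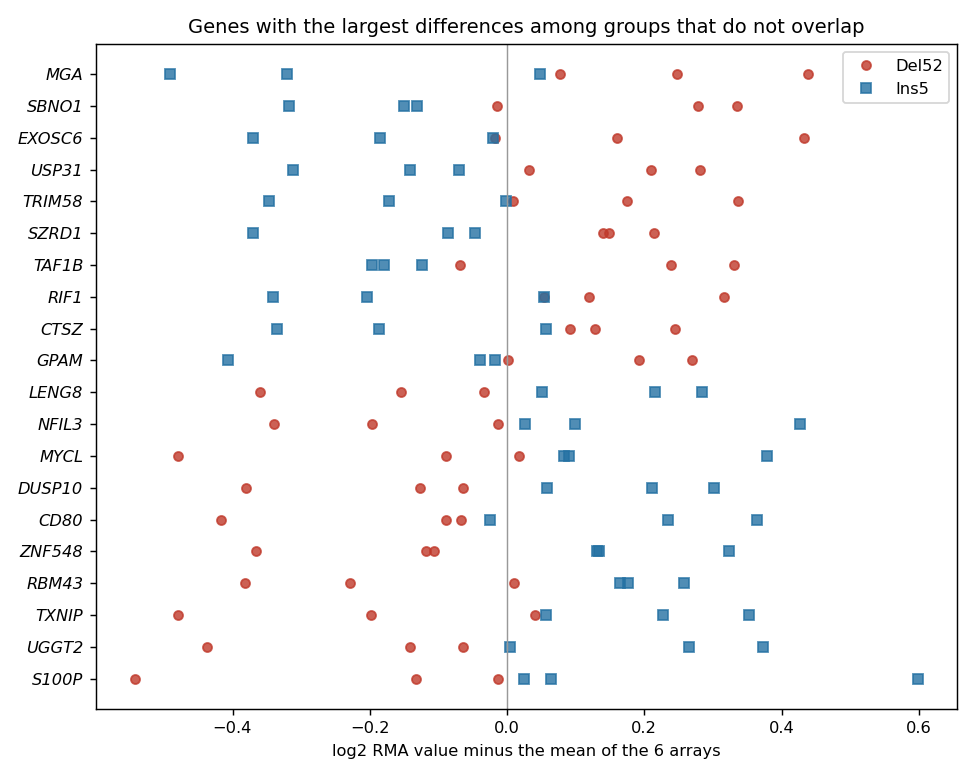
Each line is 1 of 20 genes above the median level whose groups did not overlap and whose unadjusted limma p was under 0.05. They have the largest differences each way among such genes. The points are the 3 Del52 arrays (red circles) and 3 Ins5 arrays (blue squares), as log2 RMA value minus the mean of the 6. MGA spans the widest gap of means on the higher side (0.51) and S100P on the lower (-0.46), and for EXOSC6, TRIM58 and RIF1 the nearest arrays of the 2 forms touch.

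Control probe sets and markers of other cells were set beside these results. The bacterial spikes added before labelling had a mean of 4.32 in the first Del52 array, the highest of the 6, and of 3.89 to 4.21 in the others. The 5′ probe set of 18S ribosomal RNA read 10.06 to 10.80 in Del52 and 8.63 to 9.72 in Ins5, groups that did not overlap. The hybridisation spikes lay within 8.80 to 8.89 in all 6, and the actin 3′ minus 5′ difference was 1.18 to 1.33 in Del52 and 1.22 to 1.38 in Ins5. The part of the spikes and of 18S in the differences above was not tested. The medians of markers of granulocytes and monocytes (9 measured), lymphoid cells (7) and fibroblasts and epithelia (10) were 0.02, 0.01 and -0.01. The T cell marker CD3E read 3.50 to 3.70, the monocyte marker CD14 2.12 to 2.23 and the fibroblast marker COL1A1 2.78 to 3.02, all within the antigenomic span. Not every such marker was dim: LYZ read 9.58 to 9.83, EPCAM 8.37 to 8.75, KRT18 8.94 to 9.25 and VIM 11.05 to 11.25 in the 6 arrays, with overlapping groups. In bulk samples fewer cells of a type and less RNA per cell cannot be told apart.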

How the data were processed

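Total RNA of the 9 transduced K562 samples was hybridised to Affymetrix expression arrays. The authors deposited log2 values made by RMA (background correction, quantile normalization and summary per probe set) in Partek, per the submitters' processing notes; no version is given in these sources. Of 49386 probe sets, 45253 carry 1 gene symbol in GEO's platform annotation, 1327 several and 2713 none, and 93 are controls; 45172 matched RefSeq's gene table.

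The deposited log2 values were fitted without further normalization in limma 3.58.1 (R 4.3.3; lmFit, eBayes), with 1 mean for each of the 3 groups over 9 arrays (6 residual degrees of freedom) and the contrast Del52 minus Ins5. P-values were adjusted by Benjamini-Hochberg over all genes, with a threshold of 0.05. The script was tested on simulated data. The number of arrays limits the precision.

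Named by rule were CALR, NGFR and pathway regulators, the 10 genes with the smallest p, the 10 largest differences each way among non-overlapping genes above the median level with an unadjusted p under 0.05, and the 3 members of each list with the smallest p. Other list members were chosen after their values were seen. The members and lists were chosen with earlier results of these data known. Lists were described by counts and medians, with no test.

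Alternatives were the 6 arrays alone, the replicate number as a block, quantile normalization, median centring, other probe set rules, a level filter, other variance models, a covariate and leaving arrays out. Python 3.11.15 made the counts, and promoter windows came from RefSeq (GRCh38.p14).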

Additional observations from a re-analysis of the deposited data

How the results depend on the processing

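Log2 medians of lists and differences of genes are given as the value under each alternative. No gene passed an adjusted p of 0.05 in limma under any alternative except unmoderated variances, which called 1 gene, CRACR2B (-0.09, adjusted p = 0.0128). The count of genes at an unadjusted p under 0.05 was 1052 as reported, 2717 probe sets with each tested on its own, 246 among genes above the median level, 2533 with array weights, 2796 with the first principal component as a covariate and 125 with a difference of at least 0.25 as well. Leaving out 1 array gave 645 to 931 (676 without Del52 replicate 1, 645 without Ins5 replicate 1, 695 without Ins5 replicate 3), and leaving out both replicate 1 arrays, chosen after seeing the data, gave 585. Groups did not overlap for 694 higher and 1146 lower genes as reported, and in either direction for 620 above the median level, 4888 probe sets, 2867 to 4303 with 1 array left out, and 4584 without both replicate 1 arrays. The number of features tested was 45253 with each probe set on its own, 9119 above the median level and 18239 otherwise.

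With the replicate number as a block the fit gave 242 genes (850 with the block over the 6 arrays only, chosen after seeing the data) and no adjusted call. Deviations of same-numbered Del52 and Ins5 arrays correlated at -0.56, 0.64 and 0.57. Since 1 of the 3 is negative, the numbers were not taken to pair the samples. Same-numbered wild-type arrays gave -0.60, -0.92 and -0.87 with Del52 and -0.33, -0.89 and -0.90 with Ins5. Replicate 2 of both mutant forms tracked wild-type replicate 3 (0.869 and 0.836), and replicate 3 tracked wild-type replicate 2 (0.785 and 0.876). Del52 arrays scored -6.2, 17.9 and -16 on the leading principal component (70.5% of variance). Ins5 arrays scored 3.3, 15.7 and -17.9, and wild-type arrays 3.0, -33.6 and 33.9. Same-numbered arrays nevertheless share equal values, and what the numbers stand for was not settled here.

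Arrays left out below are 1 of the 6 in turn, or both replicate 1 arrays together. These list medians moved, beside those given with their lists above, and the cause was not tested. Others that changed by over 1.5 times with arrays left out included cytosolic tRNA synthetases (-0.0026 without both replicate 1 arrays), MYC and ribosome biogenesis (-0.003 to 0.15), erythroid genes (-0.030 to 0.10), proteasome (0.020 to 0.069), cholesterol synthesis (0.012 to 0.18) and cytosolic heat shock (0.022 to 0.20). The mean of all probe sets gave 0.019 for ER stress sensors and degradation, 0.056 for ER-Golgi transport, 0.026 for peroxide and superoxide enzymes, -0.042 for JAK-STAT genes, -0.010 for BCL2 family, 0.0007 for MHC class I, 0.00 for granulocyte and monocyte markers. Quantile normalization gave 0.012 for peroxide and superoxide enzymes. Median centring gave 0.015 for peroxide and superoxide enzymes, 0.0029 for MHC class I. Genes above the median level gave -0.15 for BCL2 family, -0.075 for MHC class I, -0.20 for histones, -0.34 for lymphoid markers. With arrays left out, values ran from -0.30 to -0.065 for amino acid transporters, -0.042 to 0.020 for ER stress sensors and degradation, -0.0032 to 0.052 for ER-Golgi transport, -0.042 to 0.017 for NRF2 pathway, -0.014 to 0.020 for peroxide and superoxide enzymes, 0.019 to 0.084 for TRiC and prefoldin. They ran from -0.024 to 0.021 for autophagy and lysosome, -0.12 to -0.044 for JAK-STAT genes, -0.19 to -0.022 for AP-1 and ERK feedback genes, -0.027 to 0.023 for excision and mismatch repair, -0.057 to -0.0064 for MHC class I, -0.11 to -0.010 for histones. Values also ran from -0.018 to 0.020 for granulocyte and monocyte markers, -0.034 to 0.035 for fibroblast and epithelial markers.

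Among named genes, 54 values changed sign and 3092 did not, and none had passed the test. The 3092 include settings that cannot change a log2 difference. These are the 6 arrays alone, the replicate block, the level filter, unmoderated variances and a variance trend by level. The 2 counts therefore do not measure how stable the signs are. Quantile normalization gave 0.0017 for NGFR, 0.013 for SREBF1. Median centring gave 0.011 for NGFR, 0.018 for SREBF1. The mean of all probe sets gave 0.10 for NGFR, -0.038 for EIF2AK4, 0.10 for TXNRD1, -0.019 for SREBF2, 0.0046 for MXD1, -0.019 for HLA-F. Array weights gave 0.017 for NGFR, 0.033 for KEAP1, 0.042 for SREBF1, 0.026 for MYC. With arrays left out, values ran from -0.081 to 0.10 for CALR, -0.063 to 0.025 for NGFR, -0.27 to 0.047 for STAT5A, -0.062 to 0.0945 for EIF2AK1, -0.032 to 0.11 for EIF2AK2, -1.44 to 0.042 for ATF3. They ran from -0.89 to 0.019 for CHAC1, -0.50 to 0.026 for ASNS, -0.013 to 0.57 for HSPA1B, -0.0075 to 0.33 for HSPA8, -0.10 to 0.57 for DNAJB1, -0.29 to 0.10 for XBP1. Values also ran from -0.025 to 0.17 for ATF6, -0.10 to 0.059 for KEAP1, -0.031 to 0.080 for HMOX1, -0.26 to 0.048 for NQO1, -0.091 to 0.013 for TXNRD1, -0.060 to 0.053 for SREBF1. The range was -0.59 to 0.0077 for SOCS1, -0.34 to 0.057 for SOCS2, -0.53 to 0.067 for PIM1, -0.12 to 0.083 for MYC, -0.0026 to 0.22 for GATA1, -0.026 to 0.26 for KLF1. It was -0.54 to 0.066 for ITGA2B.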

Other observations

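Replication-dependent histones, which package new DNA in S phase, had a median log2 difference of -0.09 with 37 of 49 lower. In the replicate 1 pair 12 were at least 0.5 lower (2.6% of all genes were). The median was -0.14 in that pair and 0.01 and -0.06 in the other pairs. Interferon response genes had a median of -0.03 with 27 of 39 lower, p53 targets -0.02 with 12 of 20 lower, and oxidative phosphorylation genes 0.00 with 32 of 55 higher. The median level was 4.245 for the histones and 3.674 for the interferon genes, both within the antigenomic span.

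Some of the largest single differences belong to no list, and were chosen after their values were seen. SNORA33, a small nucleolar RNA, had the highest log2 difference of all genes, 0.75 ± 0.23 (limma adjusted p = 0.841). It read 6.07, 5.28 and 5.99 in Del52 and 4.82, 5.30 and 4.96 in Ins5, so the groups overlapped through replicate 2. AQP1, a water channel of red cells, read 4.68, 3.66 and 3.88 against 3.01, 3.64 and 3.88, which puts its whole gap of 1.67 in replicate 1. N4BP2 had the largest positive gap of the replicate 3 pair, at 4.90 against 3.61, and read 4.22 against 4.60 in replicate 1. EGR3, an immediate early gene like EGR1, differed by -0.24, -0.16 and -0.83 in the 3 pairs.

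When each probe set was tested on its own, the smallest limma adjusted p was 0.11, for a ZNF652 probe set that was 0.45 higher in Del52.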
